A study of Rattus norvegicus with 36 samples.

Results

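The miR-17 cluster and its paralogs are a family of microRNAs (miRNAs), short RNAs that bind messenger RNAs mainly through the seed, bases 2 to 8 from their 5′ end, and lower the output of those messengers. The 10 members described here, taken by exact name from the 861 miRNA names of the table, were rno-miR-17-5p, rno-miR-18a-5p, rno-miR-19b-3p, rno-miR-20a-5p, rno-miR-92a-3p, rno-miR-20b-5p, rno-miR-363-3p, rno-miR-106b-5p, rno-miR-93-5p and rno-miR-25-3p, and the prefix for the rat is left out from here on. Small RNA libraries were made from 2 brain regions, the prefrontal cortex (PFC), which serves planning and control of behaviour, and the nucleus accumbens (NAc), a centre of reward, and from serum. The donors were male adult rats of the Sprague Dawley stock. Every rat, saline controls included, was 8 weeks old on arrival, settled for 1 week, was fitted with a jugular vein catheter and recovered for 1 week. Heroin rats then took heroin at 0.075 mg/kg per infusion and controls took saline, 6 hours a day in 10 daily sessions, and death came within 60 min of the last one. There were 6 libraries per tissue and treatment, called biological replicates in the labels and numbered 1 to 6 for heroin and 7 to 12 for saline. Brain RNA was total RNA from Trizol and serum RNA came from a kit for exosomal RNA, so tissue and extraction method cannot be told apart.

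The family is encoded in 3 clusters of hairpin precursors. The founding cluster is transcribed as 1 long RNA, is known as an oncogene in lymphoma and promotes cell division and survival by lowering such proteins as the death factor Bcl2l11. In the developing brain of mice it keeps neural progenitors dividing, while in adults many members are abundant in red blood cells, platelets and white cells. Members with different seeds have different main targets: miR-17, miR-20a, miR-93 and miR-106b lower the cell cycle inhibitor p21, miR-92a restrains vessel growth, and miR-18a lowers the glucocorticoid receptor in rat neurons.

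Sequences are shown because the seed sets the target group, and because the close likeness of some members limits how their reads can be told apart. All 10 members had a mature sequence in RefSeq on rat assembly GRCr8. Capitals mark the seed. The largest seed group, AAAGUGC, held 5 members.

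miR-17-5p: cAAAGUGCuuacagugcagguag

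miR-20a-5p: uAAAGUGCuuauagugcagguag

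miR-20b-5p: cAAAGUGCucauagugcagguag

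miR-93-5p: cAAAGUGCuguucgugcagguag

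miR-106b-5p: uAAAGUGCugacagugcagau

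The seed of miR-18a-5p differs from these by G4A, the base of miR-18a-5p being written first, then the position from the 5′ end and then the base of miR-20a-5p. The seed of miR-19b-3p, GUGCAAA, is found in no other member.

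miR-18a-5p: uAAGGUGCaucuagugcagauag

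miR-19b-3p: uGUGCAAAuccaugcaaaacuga

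The third seed group, AUUGCAC, held 3 members and is shared with miR-92b-3p and miR-32-5p, which come from precursors elsewhere (chromosomes 2 and 5) and are shown for the comparison with miR-92a-3p made later.

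miR-92a-3p: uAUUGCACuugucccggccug

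miR-25-3p: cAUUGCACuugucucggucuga

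miR-363-3p: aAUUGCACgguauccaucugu

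miR-92b-3p: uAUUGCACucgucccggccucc

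miR-32-5p: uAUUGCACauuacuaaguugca

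Several members are nearly identical. From miR-17-5p to miR-20a-5p the changes are C1U and C12U, from miR-17-5p to miR-20b-5p U10C and C12U, from miR-92a-3p to miR-25-3p U1C, C14U and C18U over 21 bases, and from miR-92a-3p to miR-92b-3p U10C and G21C. How reads that match more than 1 name were shared out is not given in the sources used here, so the split between such names is uncertain. The counts themselves were not copies of each other: no member was among the 31 pairs of names with at least 500 counts whose counts differed by at most 5%, and the closest name to any member by counts, miR-98-5p to miR-92a-3p, differed by 18.97% of their summed counts.

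The miR-17-92 cluster lies on chromosome 15, with its mature sequences between bases 98587861 and 98588622 of the plus strand of GRCr8, and its 6 precursors give miR-17-5p, miR-18a-5p, miR-19a-3p, miR-20a-5p, miR-19b-3p and miR-92a-3p. The miR-106a-363 cluster lies on chromosome X, between 137342788 and 137343637 of the minus strand, and its 5 precursors include those of miR-20b-5p and miR-363-3p. The miR-106b-25 cluster lies on chromosome 12, between 22156652 and 22157123 of the minus strand, and its 3 precursors give miR-106b-5p, miR-93-5p and miR-25-3p. In the rat, the mature sequences of miR-17-5p, miR-19b-3p and miR-92a-3p are each encoded in both the chromosome 15 and the chromosome X cluster, so their counts could not be assigned to one of them. Only miR-18a-5p and miR-20a-5p stand for the chromosome 15 cluster alone among the members, and only miR-20b-5p and miR-363-3p for the chromosome X cluster alone.

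Library totals, in units of 1000000 counts, ran from 3.42 to 20.8 (PFC), from 5.89 to 24.8 (NAc) and from 0.157 to 2.78 (serum). In the shallowest serum library 1 count stood for up to 6.35 CPM (counts per 1000000 counts of the library). Neuronal miRNAs identified the brain libraries: the summed level of miR-9a-5p, miR-124-3p, miR-128-3p and miR-127-3p was 181302 to 339578 CPM in brain and 11985 to 50780 CPM in serum, where miR-128-3p made up most of it and miR-124-3p, which is specific to neurons, stood at 7.49 CPM. Red cell miRNAs (miR-451-5p, miR-486 and both arms of miR-144) summed to 28246 to 86150 CPM in serum and 70.3 to 706 CPM in brain. Libraries that stood apart from their tissue by mean correlation were saline 8 (0.881) and saline 12 (0.905) in the PFC, where the others were at 0.955 or more, and saline 12 (0.853) and saline 7 (0.896) in serum, where the others were at 0.918 or more. In bulk tissue, fewer cells of a type and less RNA per cell cannot be told apart.

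The family was a small part of brain miRNA and a larger part of serum miRNA. Its 10 members together held 813 ± 93.9 CPM in the PFC (SD, n = 12 libraries of both treatments), 1151 ± 296 CPM in the NAc and 25478 ± 9287 CPM in serum, which is 0.0813%, 0.115% and 2.55% of the counts of a library. The range in serum was wide, from 5793 CPM in saline 12 to 37814 CPM in heroin 5, with every library other than saline 12 at 15756 CPM or more. In the brain the range was 674 to 942 CPM in the PFC and 824 to 1779 CPM in the NAc.

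A single member carried most of these counts in every tissue. miR-25-3p, which in mouse heart lowers the calcium pump Serca2a, took 62.8% ± 11.02 (PFC), 62.3% ± 6.02 (NAc) and 55.2% ± 8.39 (serum) of the family counts (SD, n = 12). miR-92a-3p followed with 22.5% ± 8.96, 24.4% ± 4.61 and 21.1% ± 5.87. The 5 members with the AAAGUGC seed together took 14.1% ± 7.14 of PFC, 12.7% ± 4.46 of NAc and 21.9% ± 4.68 of serum family counts, and most of that came from miR-93-5p and miR-20a-5p. By location, the 3 members of the chromosome 12 cluster held 71.3% ± 9.43, 69.5% ± 4.94 and 67.6% ± 7.74 of the family counts, against 3.92% ± 1.72, 4.05% ± 1.83 and 7.33% ± 3.89 for the 2 members found only on chromosome 15. The share of miR-106b-5p in the PFC rested on 1 library: it was 16.02% of the family in saline 8 and 2.11% or less in the other 11 libraries.

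**Figure D1:**
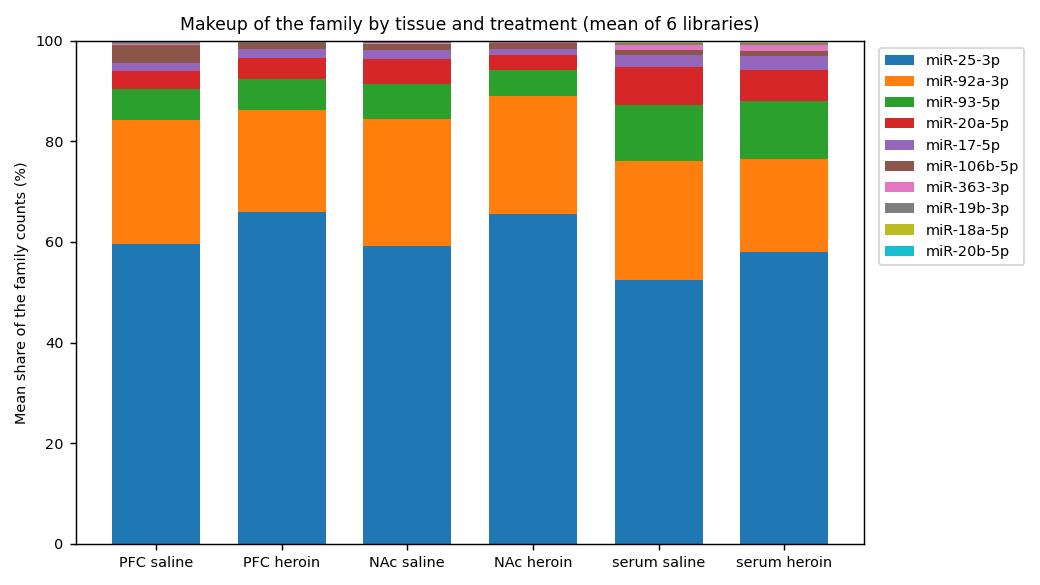
Mean share of each member in the summed counts of the family (y axis, percent) in each of the 6 groups of 6 libraries (x axis). miR-25-3p and miR-92a-3p fill most of every bar, and miR-93-5p takes 11.4% in serum against 6.15% in the PFC and 5.96% in the NAc.

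Members of 1 cluster differed widely in level even though each cluster is transcribed together. In the PFC, on the chromosome 12 cluster, miR-25-3p stood at 505 ± 66.8 CPM, miR-93-5p at 49.9 ± 20.6 CPM and miR-106b-5p at 18.0 ± 30.5 CPM (SD, n = 12). Among the members made from chromosome 15, the PFC levels were 189 ± 87.1 CPM for miR-92a-3p, 32.2 ± 16.97 CPM for miR-20a-5p, 13.9 ± 5.26 CPM for miR-17-5p, 3.96 ± 3.80 CPM for miR-19b-3p and 0.428 ± 0.453 CPM for miR-18a-5p. The 2 members made only from chromosome X were rare in brain, miR-363-3p at 0.995 ± 0.900 CPM and miR-20b-5p at 8 counts over all 12 PFC libraries and 5 counts over all 12 NAc libraries. Mature miRNAs have nearly the same length, 21 to 23 bases here, so these levels needed no length correction. Ligation preferences of small RNA libraries for given ends were not measured in these data, and a level of 1 miRNA against another includes them.

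**Figure D2:**
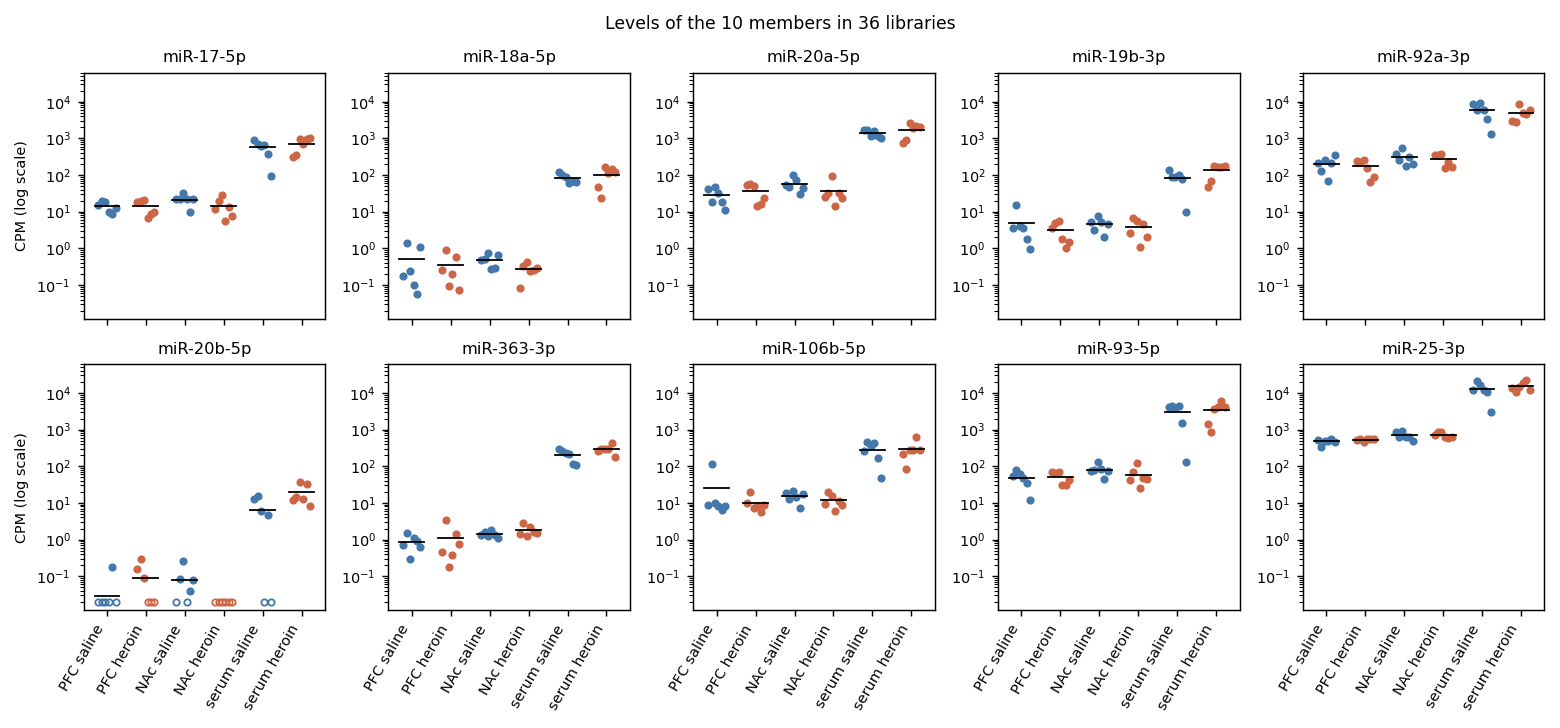
CPM of each member (y axis, log scale) in every library of the 6 groups (x axis); filled points are libraries, the black line is the group mean, and open points near the axis are libraries with 0 counts. Every group mean in serum lies above the brain means of the same member, and the saline and heroin points of a tissue overlap.

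The comparison of serum with brain asks which members circulate at a higher share of the miRNA pool than in the tissue. Counts were compared with edgeR's quasi-likelihood F test, with p-values adjusted by the Benjamini-Hochberg method over all names of a comparison, and a name was called at an adjusted p under 0.05. Fold changes are log2 ratios after TMM scaling, given with their SE. Since serum libraries were shallow, a member could enter a test through serum alone. For miR-18a-5p and miR-20b-5p, and against the PFC for miR-363-3p, this was the case, and their calls are no support for a difference. Over all names tested, 33.7% and 33.7% were called higher in serum than in the PFC and the NAc of saline rats, and 34.8% and 32.3% in heroin rats. Of the members that passed the filter on low counts in brain alone, 7 of 7 were called higher in serum than in the PFC in saline rats, beside 30.4% of all such names, and 7 of 7 in heroin rats, beside 30.2%. Against the NAc it was 8 of 8 in saline rats, beside 30.8%, and 8 of 8 in heroin rats, beside 28.3%. Each pair of tests shares its serum libraries.

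Among the 4 members with the AAAGUGC seed that passed the filter on low counts, miR-93-5p had the largest log2 fold change from PFC to serum in saline rats. Its lowest, median and highest PFC libraries stood at 12.2, 50.6 and 81.2 CPM and those of serum at 133, 4017 and 4394 CPM, a log2 fold change of 5.74 ± 0.70 (adjusted p = 2.4e-07). All serum libraries lay above all PFC libraries, with serum saline 12 far below the other 5. miR-20a-5p stood at 10.96, 25.2 and 47.7 CPM in the PFC and at 1026, 1381 and 1715 CPM in serum, 5.36 ± 0.53 (adjusted p = 1.6e-08). miR-17-5p stood at 8.42, 13.9 and 19.01 CPM and at 94.7, 647 and 908 CPM, 5.16 ± 0.53 (adjusted p = 2.7e-08). For these members, too, the serum and PFC libraries did not overlap. miR-106b-5p stood at 6.40, 8.59 and 114 CPM in the PFC and at 46.5, 302 and 470 CPM in serum, 3.58 ± 0.69 (adjusted p = 6.6e-05). Here the groups overlapped, since PFC saline 8 lay above serum saline 12.

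miR-20b-5p, the chromosome X member of this seed group, was too rare in saline rats to be tested. It had 22 counts in the 6 saline serum libraries and 3 counts in the 6 saline PFC libraries, a ratio of pooled CPM of 161 (95% interval from the counts alone, 48.3 to 839). In heroin rats it had 67 counts in serum and 0 in the NAc. With 3 counts over the group as the limit for 0, the ratio was 402. The lower 95% limit from the counts alone was 318. Against 5 counts in the PFC of heroin rats the ratio was 199 (81.1 to 632). Since PCR copies cannot be removed, such intervals cover counting error only.

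In the AUUGCAC group, miR-363-3p had the largest change from PFC to serum in saline rats. PFC libraries stood at 0.289, 0.817 and 1.55 CPM and serum libraries at 110, 221 and 299 CPM, a log2 fold change of 7.63 ± 0.61 (adjusted p = 1.3e-09), and it passed the filter in that test through serum alone. miR-92a-3p stood at 70.3, 210 and 347 CPM in the PFC and at 1319, 5981 and 9375 CPM in serum, 4.62 ± 0.56 (adjusted p = 1.9e-07). miR-25-3p stood at 329, 500 and 569 CPM and at 2991, 12303 and 20735 CPM, 4.40 ± 0.52 (adjusted p = 1.7e-07). None of these members had a PFC library as high as its lowest serum library.

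The remaining members showed the same direction. miR-18a-5p stood at 0.0577, 0.209 and 1.39 CPM in the PFC and at 61.8, 78.4 and 121 CPM in serum, 7.48 ± 0.65 (adjusted p = 4.1e-09), and like miR-363-3p it entered through serum. miR-19b-3p stood at 0.940, 3.63 and 14.99 CPM in the PFC and at 9.97, 90.7 and 133 CPM in serum, 4.02 ± 0.62 (adjusted p = 4.4e-06). Its groups overlapped, PFC saline 8 again being above serum saline 12. Names whose serum libraries all lay above the PFC libraries made up 23.3% of those tested in saline rats and 30.2% in heroin rats, and against the NAc the shares were 25% and 31%. Apart from miR-19b-3p and miR-106b-5p, and miR-20b-5p with 0 counts in 2 serum libraries, no member overlapped in saline rats against the PFC. Against the NAc in saline rats miR-20b-5p alone overlapped, and in heroin rats no member did against either region. For miR-18a-5p and miR-20b-5p, and against the PFC for miR-363-3p, a lack of overlap is no support, since they entered through serum. Among the members that passed the filter in brain alone, only miR-19b-3p and miR-106b-5p overlapped, both in saline rats against the PFC. The shares above are over all names tested, and none was computed over names that passed the filter in brain alone.

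Heroin rats gave a second estimate from other libraries. Against the PFC their log2 fold changes ran from 4.13 ± 0.37 for miR-92a-3p to 7.61 ± 0.60 for miR-363-3p, and against the NAc from 2.99 ± 0.33 for miR-92a-3p to 8.91 ± 0.72 for miR-20b-5p. The last value depends on the small count that the test adds where all 6 NAc libraries are at 0 and is no measure of size. Against the NAc in saline rats the values ran from 3.80 ± 0.46 for miR-19b-3p to 7.12 ± 0.39 for miR-18a-5p. Among names that passed the filter in brain alone, the median over members was 4.62 and 4.07 against the PFC and the NAc of saline rats, where that of all such names was -1.90 and -2.18. In heroin rats it was 4.74 and 4.10, where that of all such names was -2.12 and -2.61.

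**Figure D3:**
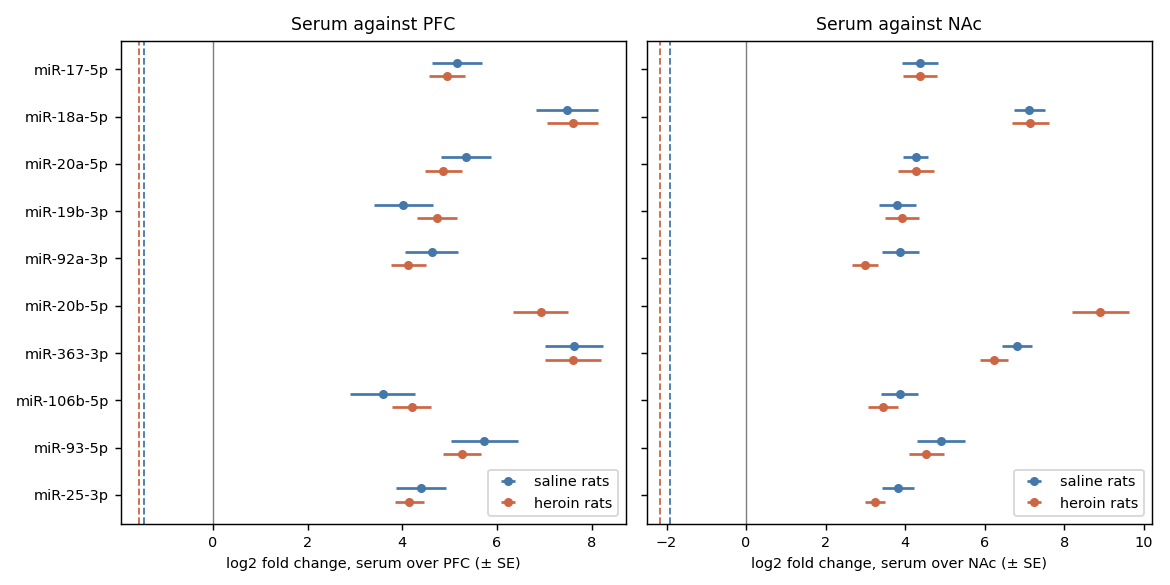
Log2 fold change of each member with its SE (x axis), serum over PFC on the left and serum over NAc on the right, in saline and in heroin rats (6 against 6 libraries each); dashed lines mark the median of all names tested. All points lie between 2.99 and 8.91, right of 0 and of the dashed lines at -1.45 to -2.18, and miR-20b-5p has no point in saline rats because it was not tested. The point at 8.91, miR-20b-5p against the NAc of heroin rats, is no measure of size because all 6 NAc libraries were at 0.

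The size of the serum difference depended on scaling and on single libraries more than its direction did. The median of all names tested moved by 1.22 with library size alone in place of TMM in serum against the NAc of heroin rats, and by -0.80 with the size factors of DESeq2 in serum against the PFC of saline rats. Every member tested kept its direction and its call in the 4 comparisons under each scaling. Over every left-out library the member values of these 4 comparisons lay between 2.68 and 9.33, with a largest adjusted p of 0.0025 in edgeR. The upper end is miR-20b-5p against the NAc of heroin rats, where the NAc counts were 0, and is no measure of size. Against the PFC in saline rats, some values from all libraries exceeded every value with 1 left out. The highest left-out values were 5.11 for miR-17-5p (5.16 with all), 5.29 for miR-20a-5p (5.36) and 4.30 for miR-25-3p (4.40). They were 4.59 for miR-92a-3p (4.62), 5.72 for miR-93-5p (5.74) and 7.61 for miR-363-3p (7.63). miR-106b-5p, miR-18a-5p and miR-19b-3p lay within their ranges. The median of all names was -1.45, and -2.18 to -1.51 with 1 left out. A called value moved by more than 1.5 times, as a fold, in 38 cases. In saline rats against the PFC this happened without PFC saline 7, 8, 9, 10, 11 or 12 or serum saline 10 or 12, giving 2.68 to 4.66 for miR-106b-5p, 4.39 to 4.57 for miR-17-5p, 6.62 to 6.84 for miR-18a-5p, 3.25 to 3.43 for miR-19b-3p, 3.78 to 3.92 for miR-92a-3p, 4.94 to 5.02 for miR-93-5p, 3.81 for miR-25-3p and 6.98 for miR-363-3p. Against the NAc in saline rats it happened without serum saline 10, giving 4.30 for miR-93-5p. In heroin rats it happened against the PFC without PFC heroin 5, giving 3.53 for miR-106b-5p, 4.26 for miR-17-5p, 3.97 for miR-19b-3p, 4.15 for miR-20a-5p, 6.07 for miR-20b-5p, 3.39 for miR-92a-3p and 4.55 for miR-93-5p, and against the NAc without NAc heroin 3, giving 4.86 for miR-20a-5p. After subtracting the move of the median of all names, 4 of the 38 values still differed by more than 1.5 times, of which the largest was miR-106b-5p without PFC saline 8, at 4.66.

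miRNAs of blood cells, liver and muscle also differed between serum and brain. All 4 red cell names were in the table and none was at 0 in all libraries of a group, and miR-451-5p, the most red-cell-specific of them, stood at 28831 ± 15774 CPM in serum against 22.5 ± 12.2 CPM in the PFC and 30.7 ± 12.9 CPM in the NAc (SD, n = 12). The summed level of 4 white cell miRNAs was 2172 to 12057 CPM in serum and 203 to 516 CPM in brain. That of 4 platelet miRNAs was 8503 to 22040 CPM in serum and 3326 to 8824 CPM in brain, so these ranges overlapped. Of the platelet names, miR-126a-3p, also listed as an endothelial marker, had means of 5539 CPM in the PFC, 3922 CPM in the NAc and 4622 CPM in serum. The means of miR-223-3p, miR-199a-3p and miR-22-3p were higher in serum than in both brain regions. The white cell and platelet lists share miR-223-3p. Serum saline 12, lowest for the family, was also lowest for the white cell list at 2172 CPM, and it was within the range of the other libraries for the red cell list. miR-122-5p, the main miRNA of liver cells, had a median of 3976 CPM in serum, with a range of 1881 to 16669.5 CPM, against 1.46 CPM in the PFC and 1.41 CPM in the NAc, where the highest libraries stood at 86.9 and 97.04 CPM. miR-1-3p, a miRNA of heart and skeletal muscle, stood at 34588 ± 17606 CPM in serum against 51.8 ± 11.1 CPM in the PFC and 16.02 ± 5.79 CPM in the NAc (SD, n = 12). Serum saline 12 was the highest serum library for miR-1-3p at 71082 CPM. The part of blood cells, liver and muscle in the serum levels was not tested.

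Names with the same seed did not all go the same way. miR-92b-3p, a miRNA of neural progenitors in mice that shares the AUUGCAC seed with miR-92a-3p and differs from it by U10C and G21C in their shared 21 bases, was lower in serum. It stood at 286, 371 and 1083 CPM in the saline PFC, at 490, 822 and 971 CPM in the saline NAc and at 24.1, 31.5 and 44.5 CPM in saline serum. The log2 fold changes were -4.07 ± 0.47 against the PFC (adjusted p = 1.3e-07) and -4.94 ± 0.33 against the NAc (adjusted p = 2.0e-09) in saline rats, and -3.53 ± 0.35 and -4.59 ± 0.36 in heroin rats. No serum library reached any brain library. The log2 ratio of miR-92b-3p to miR-92a-3p counts, which no scaling of libraries touches, was 1.27 ± 0.56 for PFC, 1.20 ± 0.55 for NAc and -6.88 ± 0.90 for serum libraries (SD, n = 12), with a pseudocount of 0.5. The lowest brain library stood at 0.26 and the highest serum library at -5.59.

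Other names of the wider family stood on the side of the members. miR-32-5p, which shares the AUUGCAC seed and differs from miR-92a-3p at 10 of 21 bases, rose by a log2 fold change of 4.89 ± 0.54 from PFC to serum and 4.23 ± 0.39 from NAc to serum in saline rats (adjusted p = 7.6e-08 and 4.4e-08). Its levels were 6.55 ± 2.40 CPM in the PFC, 8.25 ± 2.28 CPM in the NAc and 208 ± 90.8 CPM in serum (SD, n = 12). miR-19a-3p, which differs from miR-19b-3p by a single base (C11U, miR-19b-3p first) and is made on chromosome 15 alone, had 24 counts over the 12 PFC libraries, 26 over the 12 NAc libraries and 192 over the much shallower serum libraries, where it stood at 32.2 ± 23.3 CPM.

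Each precursor hairpin can give a miRNA from either arm. Of the counts of both arms, the member arm held 97% or more in each tissue, pooled over libraries, for miR-17, miR-20a, miR-19b, miR-92a, miR-363, miR-93 and miR-25. miR-17-5p, miR-19b-3p and miR-92a-3p each come from hairpins on chromosomes 15 and X. For miR-19b and miR-92a the other arm was counted from the chromosome 15 hairpin alone, since that of chromosome X was not among the names of the table. For miR-18a the share was 73.7%, 68.2% and 87.5% in PFC, NAc and serum, from 42, 58 and 601 counts of this arm and 15, 27 and 86 of the other. miR-20b-5p had 8, 5 and 89 counts against 0, 2 and 28 for its other arm. miR-106b was the exception, with miR-106b-3p as its major arm.

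miR-106b-3p: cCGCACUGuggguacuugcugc

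miR-106b-3p stood at 166 ± 34.8 CPM in the PFC, 244 ± 35.0 CPM in the NAc and 941 ± 292 CPM in serum (SD, n = 12). miR-106b-5p held 8.34% ± 10.4 (PFC), 5.35% ± 2.07 (NAc) and 22.8% ± 9.66 (serum) of the counts of both arms. The PFC value includes 40.6% in saline 8. On a log2 scale the 3p arm exceeded the 5p arm by 3.91 ± 1.20, 4.26 ± 0.67 and 1.91 ± 0.99. Both arms were called higher in serum, and the 3p arm had the smaller values, 2.42 ± 0.43 against the PFC and 1.76 ± 0.31 against the NAc in saline rats (adjusted p = 2.5e-05 and 5.3e-05), beside 3.58 ± 0.69 and 3.86 ± 0.47 for the 5p arm. The difference between arms was not tested. The shares of serum libraries, 4.64% to 39.0%, overlapped with those of both brain regions. They ran from 2.40% to 40.6% in the PFC and from 2.03% to 7.95% in the NAc.

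**Figure D4:**
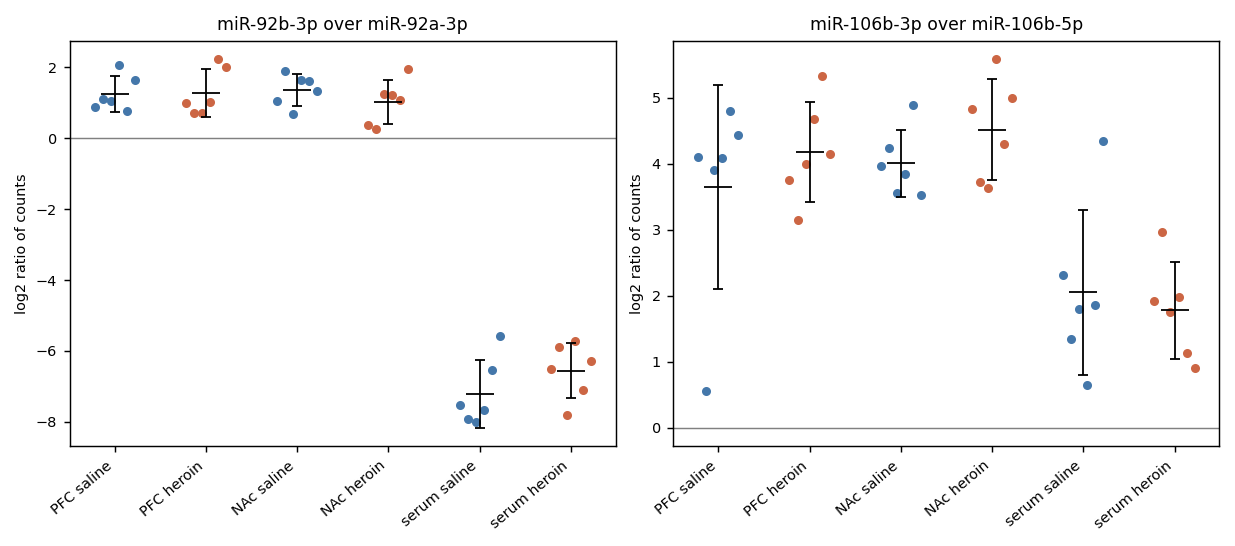
Log2 ratio of counts (y axis) of miR-92b-3p to miR-92a-3p on the left and of miR-106b-3p to miR-106b-5p on the right, for every library of the 6 groups (x axis), with the group mean and SD in black. The left ratio is above 0 in every brain library and between -8.02 and -5.59 in serum, while the right ratio is above 0 everywhere and lower on average in serum, 1.91 against 3.91 in the PFC and 4.26 in the NAc.

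Between the brain regions no member was called in the main fits. Of the other fits run, only that with the replicate number as a block called 1 member, miR-92a-3p in heroin rats. Without the block, 0 of 8 members tested passed in saline rats, beside 7.07% of all names, and in heroin rats 0 of 8, beside 1.72%. DESeq2 called 0 members in both. At an unadjusted p under 0.05 in edgeR there was 1 member of 8 in saline rats, miR-20a-5p, beside 113 of all 467 names. In heroin rats there were 2 of 8, miR-25-3p and miR-92a-3p, beside 97 of all 464 names. In heroin rats miR-92a-3p stood at 152, 285 and 365 CPM in the NAc and at 65.6, 187 and 262 CPM in the PFC, and the groups overlapped. Its NAc library was above the PFC library of the same number in 6 of 6 pairs. The same held for miR-25-3p in heroin rats and for miR-17-5p, miR-20a-5p, miR-363-3p and miR-25-3p in saline rats, none of which was called. The share of all names with 6 of 6 such pairs was not computed, so these counts have no background. For miR-92a-3p in heroin rats the log2 fold change without the block was 0.68 ± 0.31 (adjusted p = 0.23 in edgeR). With the block it was 0.72 ± 0.17 (adjusted p = 0.020 in edgeR). The block took the names called from 8 to 53 of 464, or 11.4%, among them 1 of 8 members. The labels do not say that equal numbers mark 1 rat. The deviations of same-numbered libraries were compared over the 306 names averaging 10 CPM or more in each region. They correlated over 0.1 in 6 of 6 pairs of heroin rats and in 4 of 6 pairs of saline rats. In each treatment 4 of 6 pairs correlated best with their own number. The member medians were 0.51 in saline rats and 0.29 in heroin rats, where the medians of all names tested were -0.09 and 0.00, with NAc over PFC as the direction. The largest value in saline rats was that of miR-20a-5p at 0.87 ± 0.38 (adjusted p = 0.17), from 30.8, 50.9 and 99.1 CPM in the NAc and 10.96, 25.2 and 47.7 CPM in the PFC, and its groups overlapped. In heroin rats miR-363-3p had the largest value, 0.94 ± 0.54 (adjusted p = 0.37). Serum stood first for the 7 members that passed the filter on low counts in the PFC without serum. miR-363-3p passed in this way in the NAc but not in the PFC, so only its call against the NAc counts here. For the 8 members tested between the brain regions, the tests did not separate the regions, apart from miR-92a-3p in heroin rats with the block. miR-18a-5p and miR-20b-5p were too rare in brain to be ordered there.

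miR-25-3p was the only member whose NAc and PFC libraries did not overlap in heroin rats, beside 0.862% of all names higher in the NAc in this way. NAc libraries stood at 588, 687 and 858 CPM and PFC libraries at 452, 547 and 560 CPM, a log2 fold change of 0.42 ± 0.16 (adjusted p = 0.17). In saline rats the same member stood at 495, 638 and 933 CPM in the NAc and at 329, 500 and 569 CPM in the PFC, 0.38 ± 0.27 (adjusted p = 0.40), with overlap. Names with all NAc libraries above the PFC libraries were 4.93% in saline rats, and no member was among them.

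The main question of the design is whether heroin self-administration changed these levels. No member was called in any tissue. In the PFC 0 of 7 members tested passed, in the NAc 0 of 8 and in serum 0 of 9, beside 0% of 455, 0% of 480 and 0% of 229 names in edgeR. No member reached an unadjusted p under 0.05, where 16, 30 and 11 of all names did. DESeq2 called 0, 0 and 4 names, with no member among them. For no member did all heroin libraries lie on 1 side of all saline libraries in any tissue, beside 0.437% of the names tested in serum higher in heroin rats and 0% in the other directions and tissues.

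miR-25-3p had the most counts of the members. Its PFC libraries stood at 452, 547 and 560 CPM in heroin rats and at 329, 500 and 569 CPM in saline rats, a log2 fold change of 0.23 ± 0.27 for heroin over saline (adjusted p = 0.99). NAc libraries stood at 588, 687 and 858 CPM and at 495, 638 and 933 CPM, 0.19 ± 0.17 (adjusted p = 0.70). Serum libraries stood at 10351, 13934 and 22838 CPM and at 2991, 12303 and 20735 CPM, 0.12 ± 0.37 (adjusted p = 0.89). In both brain regions the saline range enclosed the heroin range, and in serum the ranges overlapped.

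miR-92a-3p was the second member by level. Its values were -0.18 ± 0.39 for PFC, -0.06 ± 0.29 for NAc and -0.41 ± 0.41 for serum (adjusted p = 0.99, 0.94 and 0.86). Heroin serum libraries stood at 2739, 4716 and 8928 CPM and saline ones at 1319, 5981 and 9375 CPM. miR-363-3p stood at 1.26, 1.57 and 2.88 CPM in the heroin NAc and at 1.14, 1.34 and 1.79 CPM in the saline NAc, 0.47 ± 0.27 (adjusted p = 0.69), and in serum at 174, 296 and 422 CPM against 110, 221 and 299 CPM, 0.42 ± 0.34 (adjusted p = 0.86). Both pairs of groups overlapped.

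In the NAc, 6 of the 8 members tested had a negative value, and the median over members was -0.19 beside -0.07 for all names, of which 43.3% were positive. The most negative was miR-20a-5p at -0.50 ± 0.37 (adjusted p = 0.69), with heroin libraries at 14.2, 28.3 and 94.6 CPM and saline libraries at 30.8, 50.9 and 99.1 CPM. The groups overlapped, with heroin 3 far above the other heroin libraries, and without it the value was -1.01 (adjusted p = 0.11, the lowest of the left-out libraries). miR-17-5p followed at -0.42 ± 0.33 and miR-93-5p at -0.31 ± 0.28 (adjusted p = 0.69 and 0.70). These share a seed and parts of their sequence and are not separate replicates of an effect. In the PFC, 4 of 7 members were positive with a median of 0.11, and in serum 6 of 9 with a median of 0.12, beside -0.05 and -0.08 for all names.

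Of the members tested, miR-106b-5p had the value farthest from 0, -1.04 ± 0.59 in the PFC (adjusted p = 0.99), and that value rested on 1 library. PFC saline 8 stood at 114 CPM, while the other 5 saline libraries lay between 6.40 and 9.82 CPM and the heroin libraries between 5.77 and 19.9 CPM. Without saline 8 the log2 fold change was 0.25, on the other side of 0. miR-19b-3p showed the same pattern, with saline 8 at 14.99 CPM and the other PFC libraries at 5.54 CPM or less, and its -0.46 ± 0.52 became 0.07 without that library. In saline 8 the red cell list summed to 295 CPM and the white cell list to 516 CPM, where the medians of the saline PFC libraries were 121 and 302 CPM. PFC saline 12 had a higher red cell sum, 706 CPM, with a white cell sum of 273 CPM, and stood at 8.46 CPM for miR-106b-5p and 0.940 CPM for miR-19b-3p, the lowest PFC library of the latter. The part of these cells in the result was not tested. The major arm, miR-106b-3p, stood at 113, 165 and 235 CPM in heroin and 138, 159 and 184 CPM in saline PFC libraries, 0.24 ± 0.28 (adjusted p = 0.99).

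Members below the filter on low counts were miR-18a-5p and miR-20b-5p in both brain regions, miR-363-3p in the PFC and miR-20b-5p in serum. miR-20b-5p in serum stood at 8.13, 13.6 and 36.9 CPM in heroin rats (67 counts) and at 0, 5.44 and 15.04 CPM in saline rats (22 counts). All 6 heroin libraries held at least 1 count, and 2 saline libraries, 10 and 12, held 0, which allows up to 8.43 and 4.98 CPM. With no filter on low counts the log2 fold change was 1.36 ± 0.75 (adjusted p = 0.62 in edgeR). In brain it had 5 counts in heroin and 3 in saline PFC libraries, and 0 in heroin and 5 in saline NAc libraries. With no filter the NAc fit gave miR-20b-5p -2.98 ± 1.15 (unadjusted p = 0.025, adjusted p = 0.65 in edgeR), opposite in sign to serum, a value that depends on the small count added to the 0 heroin counts and is no measure of size. miR-18a-5p stood at 0.0752 to 0.877 CPM in heroin and 0.0577 to 1.39 CPM in saline PFC libraries, and at 0.0850 to 0.421 and 0.265 to 0.768 CPM in the NAc. No difference in miR-18a-5p or miR-20b-5p passed the adjusted threshold in brain at this depth.

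**Figure D5:**
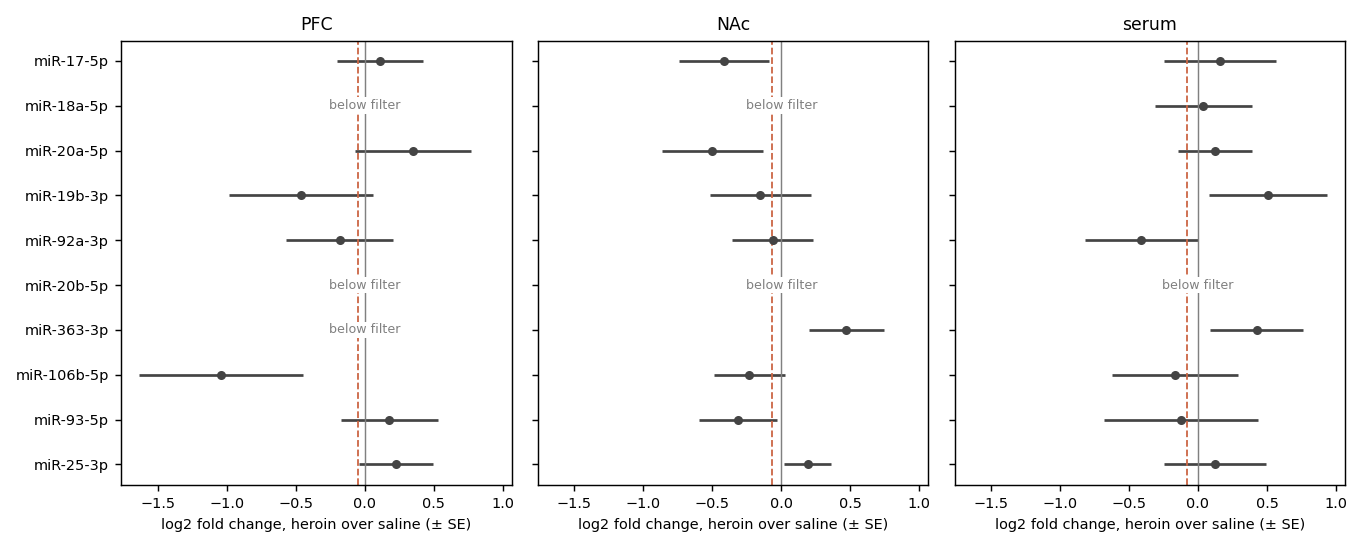
Log2 fold change of heroin over saline with its SE (x axis) for each member in the PFC, the NAc and serum (6 against 6 libraries each); the dashed line marks the median of all names tested, and members below the filter on low counts are marked. Values lie between -1.04 and 0.51, and the farthest point, miR-106b-5p in the PFC, becomes 0.25 without saline 8.

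Whether the heroin difference itself differed between tissues was tested as an interaction, in fits that reuse the libraries of the tests above. No member was called of 8 tested for NAc minus PFC, of 10 for serum minus PFC and of 10 for serum minus NAc, beside 0% of 506, 0% of 462 and 0% of 489 names. At an unadjusted p under 0.05 there were 19, 25 and 39 names, and DESeq2 called 0, 2 and 1 names, none of them a member. The only member among the 39 was miR-20b-5p for serum minus NAc, with 3.62 ± 1.28 (adjusted p = 0.38), and that fit includes the heroin NAc group with 0 counts. Values of the other members ran from -0.86 to 1.04. miR-19b-3p for serum minus PFC had the 1.04 ± 0.67 (adjusted p = 0.87) and miR-20a-5p for NAc minus PFC the -0.86 ± 0.58 (adjusted p = 0.82).

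Members were also matched by profile across the 36 libraries, as the name with the smallest root mean square difference of centred log2(CPM + 1) values among 368 names with a mean of at least 10 CPM. All these profiles share the step between brain and serum, and the libraries share their depth. miR-17-5p and miR-93-5p, which share a seed but lie on different chromosomes, were nearest to each other at 0.52, and miR-20a-5p and miR-19b-3p were nearest to miR-17-5p at 0.54 and 0.56. miR-106b-5p was nearest to miR-19b-3p at 0.57. miR-92a-3p and miR-25-3p were both nearest to miR-32-5p, of the same seed, at 0.59 and 0.41. The nearest names to the rarest members were outside the family: miR-142-3p, a white cell miRNA, to miR-363-3p at 0.53, miR-141-3p to miR-18a-5p at 0.67 and miR-140-5p to miR-20b-5p at 0.83.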

How the data were processed

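Read counts per mature miRNA and TPM values were deposited by the authors for 36 libraries, per the file headers. TPM equalled the count divided by the library total of the table and multiplied by 1e+06 (largest relative difference 4.9e-15), so it is the CPM used here and has no length term. Per the submitters' processing notes, Bowtie and build rn6 were used; how reads matching several names were assigned is not stated in the sources used here. Members and lists were chosen with earlier results of these data known. All libraries were placed in groups from their labels, and chi-square per degree of freedom was at least 46.2 over 90 replicate pairs, so no library was taken as a repeat; nothing says which tissues share a rat. As a check of pairing, the deviations of same-numbered libraries from their group means were correlated. In PFC and NAc of heroin rats all 6 pairs were over 0.1 (0.121 to 0.728), and 4 correlated best with their own number. The main fits took no libraries as paired. For NAc against PFC in heroin rats the fit with the replicate number as a block is given beside the main fit. Any pairing there was read from the data and not the labels. The p-values of the main fits set a group difference against the spread between the libraries of a group. Should equal numbers mark 1 rat, the main fits between tissues ignore that pairing.

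Counts as deposited were tested with edgeR 4.0.16 in R 4.3.3 (TMM, filterByExpr with a minimum count of 10, quasi-likelihood F test, Benjamini-Hochberg adjustment over all names at 0.05), each comparison on its own groups. SEs are |log2 fold change| / √F. Code was tested on simulated data. Alternatives were DESeq2 1.42.0 and its size factors, library size alone, no filter, limma 3.58.1 on log2(TPM + 1) and limma-voom, near-repeated names counted once, a replicate block, and libraries left out. Sums and shares over members carry no p. Intervals are 95% and cover counting error only. The named miRNAs are the members, fixed names from their hairpins and seeds, the nearest name by profile and fixed cell markers. Sequences and coordinates are from RefSeq, GRCr8.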

Additional observations from a re-analysis of the deposited data

Results flagged for a closer look

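In each group of 6 libraries, the gap between the highest or lowest library and its neighbour was compared with the range of the group. A library far from the others was found in 9 of 65 groups of values. For independent, normally distributed values chance gives about 1 in 20. These groups share libraries and some rest on very few counts, so the 9 are no measure of an excess over chance. In the PFC of saline rats, saline 8 was highest for miR-106b-5p at 114 CPM (739 counts), with the next library at 9.82 CPM, and for miR-19b-3p at 14.99 CPM (97 counts), with the next at 4.04 CPM. Saline 8 had the lowest mean correlation with the PFC libraries (0.881).

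In the PFC of heroin rats, heroin 2 was highest for miR-106b-5p at 19.9 CPM (68 counts) and for miR-363-3p at 3.51 CPM (12 counts), and it was the shallowest PFC library. Heroin 3 was lowest for miR-25-3p at 452 CPM, with the next library at 523 CPM. In the NAc, heroin 3 was highest for miR-20a-5p at 94.6 CPM, with the next library at 32.9 CPM. In serum, heroin 5 was highest for miR-106b-5p at 630 CPM, with the next library at 277 CPM.

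The other values rest on very few counts: miR-20b-5p in PFC saline 11 at 0.173 CPM (3 counts, the other 5 libraries at 0) and in NAc saline 9 at 0.256 CPM (2 counts).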

How the results depend on the processing

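All calls of members higher in serum, and the absence of calls of members for heroin and for the interactions, were the same under every alternative and left-out library run; NAc against PFC in heroin rats had 1 member called with the replicate block, miR-92a-3p at 0.72. The block changed no other call of a member. In the other tissue pairs the deviations of same-numbered libraries did not all correlate over 0.1: they did in 4 of 6 pairs for PFC and NAc of saline rats, in 2 and 5 for PFC and serum of heroin and saline rats, and in 2 and 3 for NAc and serum. No paired analysis was possible for heroin against saline because those groups share no number. The cause of the moves below was not tested. Depth limits serum most, where 1 count is up to 6.35 CPM.

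Counts of all names called moved as follows. Heroin against saline in serum, 0, became 2 with no filter, 4 with DESeq2, 2 without saline 10, 11 and 12, and 0 to 2 over left-out libraries. NAc against PFC in saline rats, 33, became 58 with DESeq2 and 25 to 52 over left-out libraries. In heroin rats, 8 became 34 with DESeq2, 14 with limma on TPM, 53 with the replicate block and 6 to 38 over left-out libraries. Serum minus PFC, 0, became 2 with DESeq2 and 0 to 2 over left-out libraries, and serum minus NAc, 0, became 1 and 0 to 3.

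Member values not called often changed sign; over 472 values of heroin against saline 39 did, with a smallest adjusted p of 0.11. In the PFC, miR-17-5p was -0.063 with limma on TPM, and without saline 8 and 12 miR-106b-5p was 0.20, miR-20a-5p -0.028 and miR-93-5p -0.0088. In serum, with library size alone, limma on TPM and limma-voom, miR-106b-5p was 0.030, 0.12 and 0.049 and miR-93-5p 0.11, 0.47 and 0.34. Without serum saline 10, 11 and 12, miR-17-5p was -0.34, miR-18a-5p -0.28, miR-20a-5p -0.085, miR-25-3p -0.32 and miR-363-3p -0.0085. For NAc against PFC in saline rats, miR-106b-5p was 0.15 with limma on TPM and 0.19 with the replicate block, and miR-19b-3p 0.21 and 0.21. In heroin rats, limma on TPM gave -0.0066 for miR-17-5p and -0.018 for miR-20a-5p, and the replicate block -0.0040 for miR-20a-5p.

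Interactions changed sign too. For NAc minus PFC, miR-25-3p was -0.019 with DESeq2 size factors, -0.12 with library size, -0.019 with DESeq2, -0.12 with limma, -0.017 with repeated names once and -0.027 with the replicate block. For serum minus PFC, miR-25-3p was 0.12 with library size, 0.061 with no filter, 0.27 with limma and 0.050 with the replicate block, miR-92a-3p 0.017 with library size and 0.16 with limma, and miR-93-5p 0.045, 0.29 and 0.034 with library size, limma and the replicate block. For serum minus NAc, miR-25-3p was -0.073, -0.13, -0.073 and -0.078 with DESeq2 size factors, no filter, DESeq2 and repeated names once, miR-363-3p -0.11, -0.18, -0.085 and -0.052, miR-106b-5p -0.023 with no filter and miR-92a-3p 0.11 with limma.

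Over left-out libraries the signs changed within these ranges. Heroin in the PFC: miR-106b-5p -1.25 to 0.25, miR-17-5p -0.023 to 0.27, miR-19b-3p -0.72 to 0.067, miR-92a-3p -0.34 to 0.011 and miR-93-5p -0.023 to 0.32. Heroin in the NAc: miR-19b-3p -0.32 to 0.021 and miR-92a-3p -0.20 to 0.12. Heroin in serum: miR-106b-5p -0.42 to 0.038, miR-17-5p -0.062 to 0.41, miR-18a-5p -0.14 to 0.17, miR-20a-5p -0.042 to 0.21, miR-25-3p -0.069 to 0.31 and miR-93-5p -0.38 to 0.057. NAc against PFC: miR-106b-5p -0.76 to 0.66 and miR-19b-3p -0.25 to 0.47 in saline rats, and miR-17-5p -0.23 to 0.20, miR-20a-5p -0.43 to 0.21 and miR-93-5p -0.10 to 0.32 in heroin rats. NAc minus PFC: miR-106b-5p -0.42 to 1.04, miR-19b-3p -0.17 to 0.63, miR-25-3p -0.11 to 0.15 and miR-92a-3p -0.11 to 0.35. Serum minus PFC: miR-106b-5p -0.28 to 1.25, miR-17-5p -0.050 to 0.28, miR-20b-5p -0.71 to 1.66, miR-25-3p -0.20 to 0.22, miR-363-3p -0.075 to 0.69 and miR-92a-3p -0.34 to 0.21. Serum minus NAc: miR-106b-5p -0.29 to 0.33, miR-25-3p -0.27 to 0.11, miR-363-3p -0.35 to 0.20 and miR-93-5p -0.10 to 0.57.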
